A study of Mus musculus with 15 samples.

Results

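The late end of a doxycycline time course in a mouse acute myeloid leukemia was compared with the untreated leukemia. The samples titled RAS-OFF at 84 h (2 arrays) and at 96 h (2 arrays) were set against the samples titled RAS-ON at 0 h (5 arrays), which makes 9 of the 15 arrays of the series. Arrays were assigned to these groups by their titles, and the comparison itself was chosen with earlier results of these data known. The other 6 arrays, RAS-OFF at 48, 60 and 72 h with 2 arrays each, entered the fit for the spread and served as the earlier RAS-OFF group.

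The leukemia carried the genotype NRASG12V/Mll-AF9 in all 15 samples, so the controls carried both oncogenes too. The cells had been injected into the tail vein of SCID/Beige mice, in which the leukemia grew for 20 days to a leukocyte count above 100000 per ul. Doxycycline, which shuts off the NRASG12V transgene in this model, was given by intraperitoneal injection at time 0 and then in the drinking water until the RAS-OFF mice were killed. RAS-ON samples were vehicle-treated. The tissue was labelled as primary AML cells taken from leukemic spleens, and no sort was described. SCID/Beige hosts lack functional T and B lymphocytes and have weak natural killer cells, but keep erythroid cells, platelets, macrophages and stroma of their own, so host cells of the spleen could be among the cells measured. The sources used here do not give the hosts' age, the promoter behind the transgene, or the number of separate leukemias. The labels do not say that arrays of a group came from separate mice, so each p-value speaks of the spread among these particular arrays, part of which may be technical.

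RAS is a small GTPase that, in its active form, switches on the kinase chain RAF, MEK and ERK. ERK activity induces immediate early transcription factors such as FOS and EGR1, the ETS factor ETV5, cyclin D1, and feedback inhibitors such as the phosphatase DUSP6 and the Sprouty and SPRED proteins. MLL-AF9 is a fusion transcription regulator that holds HOXA genes and MEIS1 active and blocks myeloid maturation, and activated NRAS is a common partner lesion of MLL-rearranged leukemia. The comparison asks what the leukemic spleen expresses after 84 to 96 h of doxycycline, given to shut off the RAS transgene. All RAS-OFF arrays had the drug and were taken later than the vehicle-treated RAS-ON arrays. No doxycycline-treated samples without the transgene were in the series. Effects of losing the RAS signal, of the drug itself and of elapsed time therefore cannot be told apart, and their separate parts were not tested.

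Each gene was measured by its brightest probe set, and expression is given as log2 of the deposited intensity, so that a difference of 1 is a doubling or halving. A gene was called when limma's moderated test, fitted over all 18193 genes and 15 arrays, gave a Benjamini-Hochberg adjusted p below 0.05, and rose and fell are used only of called genes. Errors of differences are standard errors of that fit (SE), for 4 late arrays against 5 RAS-ON arrays.

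Array medians were alike, at intensities of 150.0 to 156.5. The deposited values were quantile normalized, which makes them so, and they do not check array quality. Correlations within groups of replicates ran from 0.99 to 0.998. The leukemia identity list (Ptprc, Spi1, Itgam, Mpo, Hoxa9, Meis1, Cebpa and Csf1r) read 6.88 or above in each of the 15 arrays, the lowest value being that of Meis1. Detection calls were not used here, and a level of this size does not by itself show expression: Ctrb1, a pancreas gene, read up to 7.93 in the arrays where pancreas genes were not raised. Ptprc, the pan-leukocyte surface phosphatase CD45, lay between 12.94 and 13.30 in the RAS-ON arrays and between 13.06 and 13.20 in the late arrays. The list as a whole did not hold level. Of its 8 genes 3 fell and 0 rose late (median -0.50), beside 26.6% lower and 19.4% higher over all genes. Its summed intensity was 36735 to 38698 in RAS-ON and 22292 to 25033 late. Nras, measured by 3 probe sets, read 10.72, 10.90, 10.86, 11.02 and 11.19 in RAS-ON and 10.34 and 10.60 at 84 h and 10.39 and 10.72 at 96 h. It fell by 0.43 ± 0.11 (SE, adjusted p = 0.00402), with the highest late array level with the lowest RAS-ON array. The call was lost without the pair of arrays named next (adjusted p = 0.103). Whether these probe sets read the transgene is not stated in the labels, so Nras does not check the labels.

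Of the late arrays, 84 h replicate 1 and 96 h replicate 1 each stood apart. In 84 h replicate 1, 22 of 25 measured genes of pancreatic acinar cells, the makers of digestive enzymes, lay more than 1 log2 unit above every other array, by 1.43 to 6.27. The protease precursor Ctrb1 read 13.50 there and at most 7.93 in any other array, Reg1 read 13.29 against at most 7.27, and Cpa1 read 12.32 against at most 6.05. The summed intensity of the 25 genes was 99013 in that array and 3399 to 3952 in the other 14. Of 7 endocrine pancreas genes, 0 stood above in this way. Over all genes, 33 exceeded every other array by more than 1 there, 22 of them on the acinar list. These 33 genes accounted for 31 calls in 84 h minus RAS-ON, but for 2 calls (Cela1 and Cckar) in the 4 late arrays together. The elastase Cela1 was 1.54 higher in late arrays (adjusted p = 0.0137) and 0.69 higher without the 2 arrays.

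In 96 h replicate 1 the 3′ probe set of Gapdh was brighter than the 5′ probe set by 1.22, against 0.10 to 0.35 in the other 14 arrays, and for actin by 0.46 against -0.07 to 0.14. The transferrin receptor controls gave 2.33 against 0.15 to 1.75, while those of pyruvate carboxylase did not stand apart. A rising 3′ excess is the usual array sign of shorter RNA. In that array 5 genes (Clec5a, Glrx, Rpf1, Ccdc125 and Lgals9) lay more than 1 log2 unit below every other array, and 0 lay above. Where leaving out both arrays changed the count of a gene list against RAS-ON, the second count is given beside the first. What part the pancreas transcripts or the 3′ excess had in any one of the other genes was not tested.

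**Figure D1:**
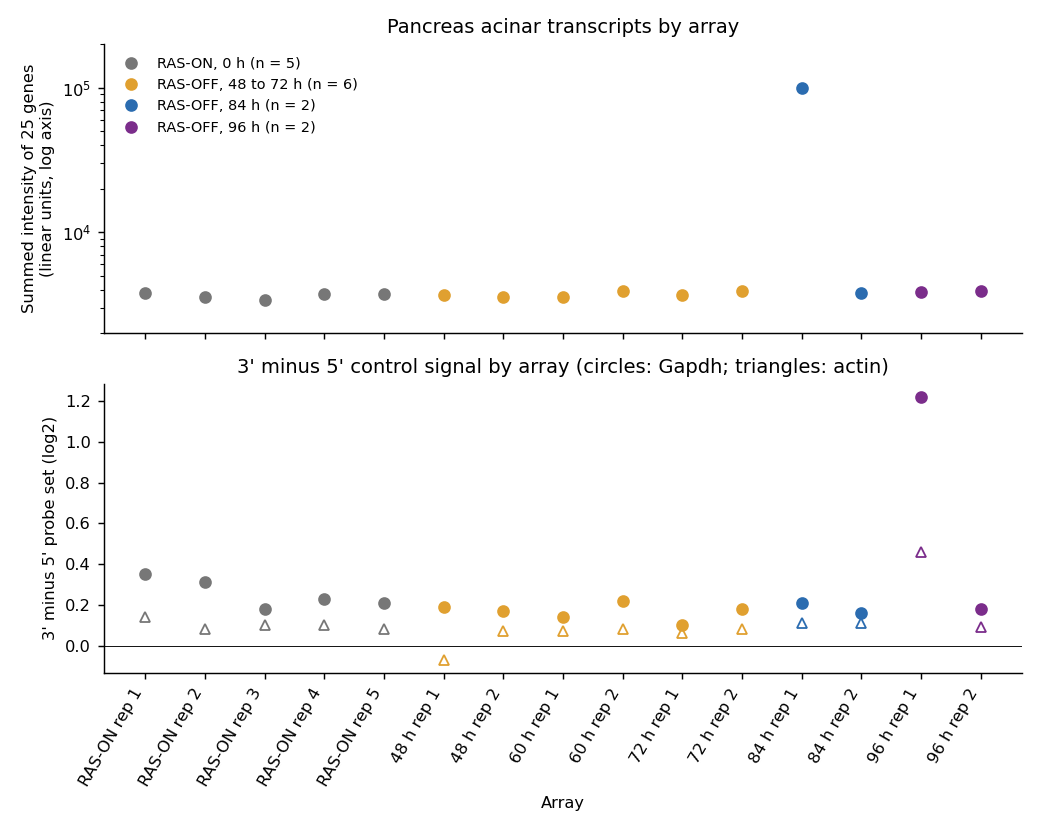
The upper panel plots the summed intensity of 25 pancreas acinar genes on a log axis for each of 15 arrays, and the lower panel the 3′ minus 5′ difference of the Gapdh (circles) and actin (triangles) control probe sets in log2 units. 84 h replicate 1 lies at 99013 in the upper panel, and 96 h replicate 1 at 1.22 (Gapdh) and 0.46 (actin) in the lower.

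After 84 to 96 h of doxycycline, ERK output, early myeloid granule genes and glycolysis were lower, and erythroid, interferon and DNA replication genes were higher. Relative to RAS-ON, 3523 genes rose and 4846 fell, 19.4% and 26.6% of the 18193 tested, and 506 rose and 481 fell by at least 1 log2 unit. Without both arrays that stood apart, 2660 rose (14.6%) and 3655 fell (20.1%); 6177 of the 8369 calls were kept in the same direction and 0 changed sign. The median gene differed by -0.0347, and centring each array on its median turned the split into 4238 higher and 4041 lower. Counts called in each gene list below should be read beside the shares over all genes given here.

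The 2 late time points were then taken one by one. At 84 h 2738 genes were higher (15%) and 3962 lower (21.8%) than in RAS-ON, and at 96 h 3045 were higher (16.7%) and 3802 lower (20.9%). Both comparisons share the RAS-ON arrays. They had 5596 calls in the same direction, 83.5% of the calls at 84 h and 81.7% of those at 96 h, and 1 in opposite directions. In the direct test of 96 h minus 84 h limma called 0 genes, with 688 at an unadjusted p below 0.05 and a lowest adjusted p of 0.318. With 2 arrays at each time and 1 of each standing apart, this does not show that the time points are alike. Leaving out 84 h replicate 2 gave 37 genes lower at 96 h, but 84 h was then 84 h replicate 1 alone, and 33 of the 37 were the genes that stood above every other array there, 22 of them acinar. Calls at 84 h were also lost without 84 h replicate 1, but fewer remained without replicate 2. Each of these fits left 1 array at 84 h, so such losses do not measure the pancreas transcripts.

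The genes with the largest rises included an embryonic globin and a red cell membrane protein. Hbb-y, the embryonic beta-like globin, read 9.15, 9.82, 10.17, 10.30 and 10.31 in RAS-ON and 13.93, 14.08, 13.93 and 13.76 in the late arrays, a rise of 3.98 ± 0.18 (15.7-fold, adjusted p = 6.65e-10). Its groups lay more than 3 log2 units apart, and each of its 3 probe sets was called higher. Epb42, which encodes the membrane skeleton protein 4.2 of red cells, lay between 8.57 and 9.37 in RAS-ON and between 11.34 and 11.69 late (2.64 ± 0.14). Il1bos, a transcript antisense to the interleukin 1 beta gene, lay between 4.49 and 4.98 in RAS-ON and between 8.43 and 9.09 late (3.96 ± 0.15). The signal of an antisense transcript is uncertain where its probes overlap the partner gene.

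Tac2, which encodes the tachykinin neurokinin B, read 7.66, 7.37, 7.55, 7.45 and 6.90 in RAS-ON and 10.24, 10.39, 10.16 and 10.08 late, a rise of 2.83 ± 0.12 (7.11-fold, adjusted p = 2.64e-10). Prokr1, a prokineticin receptor, had a tight late group, at 8.98, 8.97, 9.03 and 9.04, and rose by 2.63 ± 0.08 (adjusted p = 1.64e-11). Only 1 of its 2 probe sets was called, the other differing by -0.08, and the mean of both gave 1.28. The remaining large rises were Ninl, a ninein-like centrosome protein (3.03 ± 0.28), the amino acid transporter Slc6a20a (2.95 ± 0.23) and the protein-deglycating kinase Fn3k (2.51 ± 0.24). In these last 3 genes RAS-ON replicates 4 and 5 lay below replicates 1 to 3, but no RAS-ON array reached the late range.

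The 8 largest falls included those of 2 cadherins and a chemokine. Cdh17, a cadherin, read 10.26, 10.19, 10.09, 10.69 and 10.85 in RAS-ON and 6.47, 6.54, 6.54 and 6.33 late and fell by 3.95 (15.4-fold lower, adjusted p = 7.45e-11). Cdh1, E-cadherin, fell by 3.06, with RAS-ON arrays at 7.91 to 9.36 and late arrays at 5.31 to 6.37. The small GTPase Gem fell by 3.87, and the chemokine Ccl9, which read 12.69 to 12.75 in the 5 RAS-ON arrays, fell by 2.89, late arrays lying at 9.31 to 10.27. Bex6 (-3.20), the opioid peptide precursor Penk (-3.07), Sgip1 (-3.06) and the skin-secreted protein gene Dmkn (-2.93) fell as well. The late and RAS-ON arrays did not overlap for any of these 8 genes, which the rule for naming them required. Of the 5 probe sets of Sgip1, 3 were called lower and 1 higher, and their mean gave -1.28, also called lower.

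**Figure D2:**
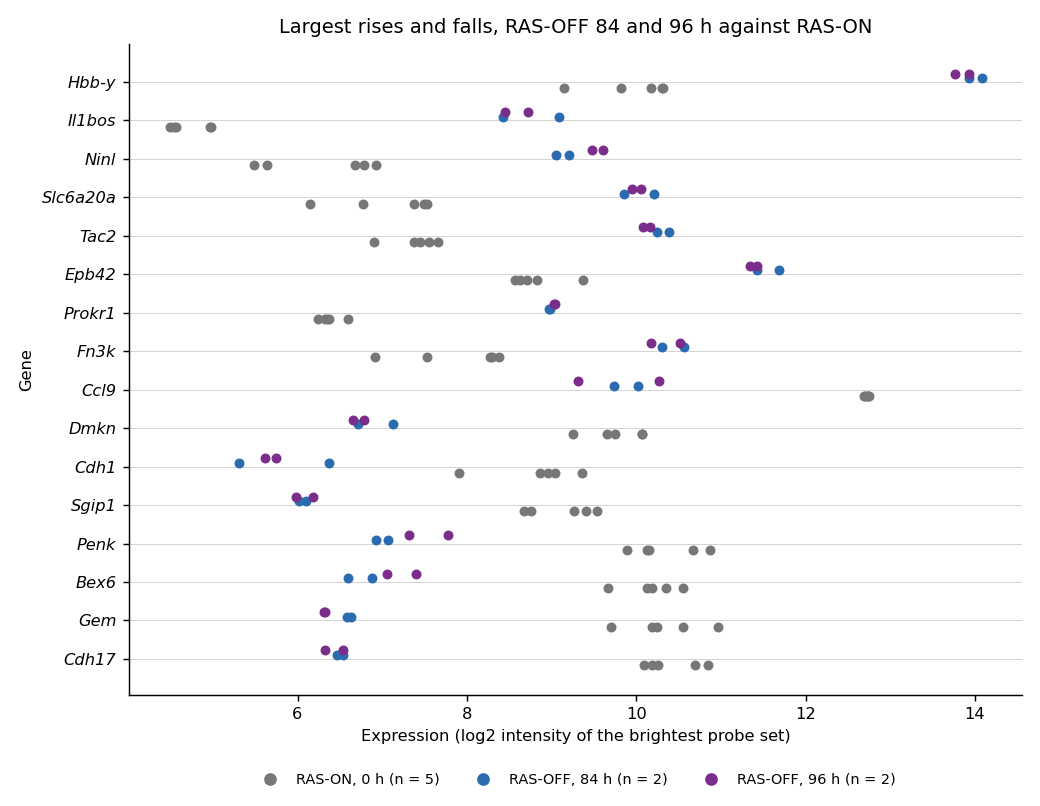
Each point is the log2 intensity of 1 gene in 1 array, for the 8 largest rises and the 8 largest falls among called genes whose groups did not overlap. RAS-ON arrays (n = 5), 84 h arrays (n = 2) and 96 h arrays (n = 2) are coloured, and for Prokr1 the 4 late points lie between 8.97 and 9.04.

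ERK output was lower in the late arrays. Of 17 measured genes of ERK feedback and output, 10 fell and 1 rose, and the median difference was -0.42 beside -0.03 over all genes. Etv5, the ETS factor induced by ERK, read 9.66, 10.04, 9.92, 9.52 and 9.67 in RAS-ON and 8.02, 7.49, 7.49 and 7.47 late and fell by 2.15 (4.43-fold lower, adjusted p = 1.95e-09). Array 84 h replicate 1 was the highest of the late arrays, and the groups did not overlap. The mean of its probe sets gave -1.41. Dusp6, the phosphatase that inactivates ERK, read 11.91, 12.25, 12.07, 11.61 and 11.79 in RAS-ON and 10.55, 10.38, 10.54 and 10.31 late and fell by 1.48 (adjusted p = 5.09e-08). Ccnd1, cyclin D1, fell by 1.55, the receptor kinase Epha2 by 1.40 and the RAF inhibitor Spred2 by 1.01 (-0.55 as the mean of its probe sets). By their brightest probe sets, feedback genes did not act as 1 block. Spry1 rose by 0.18, Spry2 and Spry4 were not called (0.06 and -0.13), and neither was Dusp4 (-0.06). The mean of probe sets, however, called Spry2 and Spry4 lower (-0.40 and -0.31). Spry1 lost its call without both arrays that stood apart.

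Immediate early genes, which cells induce within minutes of a growth signal, were lower in the same arrays: 10 of 18 fell and 2 rose (median -0.45). Fos read 10.59, 10.28, 11.09, 10.66 and 10.66 in RAS-ON and 8.53, 8.52, 8.60 and 8.47 late and fell by 2.13 (4.36-fold lower, adjusted p = 2.62e-09). Klf4, a factor that is also used in monocytes, fell by 2.41 (5.33-fold lower), Egr1 by 1.74 and Jun by 1.68. The late values of Fos spanned only 8.47 to 8.60, far below the lowest RAS-ON array. Against the direction of the list, the antiproliferative gene Btg2 rose by 1.33 and Ier5 by 0.42, while Egr2, Egr3, Fosb, Nr4a2, Atf3 and Klf6 were not called. With the mean of probe sets Egr2 (-0.43), Egr3 (-0.86) and Klf6 (-0.52) were called lower. Without both arrays the counts were 10 fallen and 0 risen for ERK output and 10 fallen and 2 risen for immediate early genes.

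Myc, which encodes a driver of growth downstream of RAS signals, read 10.49, 10.77, 10.75, 10.07 and 10.70 in RAS-ON and 9.93, 9.96, 10.15 and 10.26 late and fell by 0.48 ± 0.12 (adjusted p = 0.00457). RAS-ON replicate 4 lay within the late range, and the call was lost without both arrays that stood apart (adjusted p = 0.0515) and with RAS-ON replicates 4 and 5 alone (0.0952). Of 24 genes of ribosome biogenesis and MYC output, 15 fell and 1 rose (median -0.34), the largest falls being those of the nucleolar proteins Pes1 (by 0.84), Nop16 (by 0.82) and Bop1 (by 0.79). Pes1, Nop16 and Bop1 each had 1 of 2 probe sets called, and the means gave -0.52, -0.49 and -0.47. The polyamine enzyme Odc1, a textbook MYC target, rose by 0.68. Without both arrays 12 of the 24 fell.

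Genes that MLL fusions sustain moved in both directions. Of 15 measured, 6 fell and 3 rose (median -0.12), beside 26.6% lower and 19.4% higher over all genes. Hoxa9, the best known target, read 9.81, 9.57, 10.13, 10.18 and 10.20 in RAS-ON and 9.74, 9.43, 9.84 and 9.94 late, a difference of -0.24 ± 0.12 that was not called (adjusted p = 0.119), with overlapping groups. Hoxa9 was called lower in 3 alternatives: -0.45 against RAS-ON replicates 4 and 5 alone (adjusted p = 0.00213), -0.34 when RAS-ON replicate 2 was left out (0.0123), and -0.26 when probe sets were averaged (0.0362). Its partner Meis1 differed by -0.02 ± 0.16 (adjusted p = 0.929), and its RAS-ON arrays ranged from 6.88 to 7.85 around late values of 7.28 to 7.61. Against RAS-ON replicates 4 and 5 alone, Meis1 was higher by 0.37 (adjusted p = 0.0452), and against replicates 1 to 3 lower by 0.28 (adjusted p = 0.0345), so its direction depended on the RAS-ON arrays used. Mef2c, a transcription factor of myeloid progenitors, read 11.90, 11.80, 11.59, 11.71 and 11.71 in RAS-ON and 9.80, 9.88, 9.65 and 9.78 late and fell by 1.97 (adjusted p = 3.81e-10). Myb fell by 0.61 and Hoxa7 by 0.90, whereas Hoxa10 rose by 0.54, the cofactor gene Pbx3 by 1.10 and Mecom by 1.41. Mecom was called by 1 of its 3 probe sets, and the lowest of them differed by 0.06.

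Stem and progenitor markers were as mixed, with 8 of 19 fallen and 6 risen (median -0.10), and 8 and 5 without both arrays. Cd34, the progenitor surface marker, read 10.37, 10.32, 10.28, 9.63 and 9.86 in RAS-ON and 8.20, 7.85, 8.15 and 7.93 late and fell by 2.06 (4.18-fold lower, adjusted p = 2.3e-08). Gfi1, a repressor needed for granulocytes, fell by 1.91, and its relative Gfi1b, needed for red cells and platelets, rose by 1.47. Both factors separated the groups without overlap: Gfi1 lay between 9.31 and 9.91 in RAS-ON and between 7.65 and 7.86 late, and Gfi1b between 10.02 and 10.42 and between 11.57 and 11.77. Tal1, a further erythroid and megakaryocyte factor, rose by 1.40. Kit, the stem cell factor receptor, was 0.37 ± 0.12 higher (adjusted p = 0.0259), but it overlapped between groups and kept its call in only 19 of 26 alternatives.

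Early myeloid granule genes fell. Each of the 8 measured genes of azurophil granules, the first granules that promyelocytes make, was lower than in RAS-ON (median -2.16). Ctsg, cathepsin G, read 13.01, 12.91, 12.81, 13.05 and 13.12 in RAS-ON and 10.61, 10.04, 9.84 and 10.26 late and fell by 2.79 (6.93-fold lower, adjusted p = 2.77e-10). Elane, neutrophil elastase, fell by 2.47, the cystatin Cst7 by 2.51 and myeloperoxidase (Mpo) by 1.41. The 4 late arrays lay together below the RAS-ON arrays in these 4 genes, and without both arrays all 8 members remained lower. The master regulators of the lineage were lower as well: Cebpa read 10.79, 10.69, 10.45, 10.46 and 10.48 in RAS-ON and 8.88, 8.74, 8.84 and 8.55 late and fell by 1.82 (adjusted p = 2.69e-09), and Spi1, which encodes PU.1, fell by 1.61.

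Among monocyte and macrophage genes 15 of 22 fell and 1 rose (median -0.76), and 13 and 0 did so without both arrays. F13a1, coagulation factor XIII of monocytes, read 12.84, 12.97, 13.04, 12.79 and 13.02 in RAS-ON and 10.69, 10.36, 10.65 and 10.18 late and fell by 2.46 (5.50-fold lower, adjusted p = 1.77e-10). The scavenger receptor Msr1 fell by 1.63, the chemokine receptor Cx3cr1 by 1.62 and the lectin Clec4e by 1.49. Csf1r, the receptor for the monocyte growth factor, was not called (-0.21, adjusted p = 0.0759), and Tlr4 rose by 0.31, a call lost without both arrays and with the mean of its probe sets (-0.17). Lysosomal genes went the same way, with 14 of 21 fallen and 0 risen (median -0.53): Gla fell by 1.46, Ctsa by 1.19 and Gusb by 1.11. The mean of probe sets gave -0.68 for Gla, -0.73 for Ctsa and -1.48 for Gusb. In bulk RNA of this kind, fewer cells of a type and less RNA per cell cannot be told apart.

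Genes of later neutrophil stages, which fill the specific and gelatinase granules, did not follow the azurophil genes. Of 18, 8 rose and 3 fell (median 0.15), and without both arrays 8 and 2. Mmp8, the neutrophil collagenase, read 10.20, 10.63, 10.21, 10.19 and 10.25 in RAS-ON and 12.11, 12.20, 11.72 and 12.02 late, a rise of 1.72 ± 0.10 (3.29-fold, adjusted p = 4.15e-09). Cxcr2, the receptor that calls neutrophils out of the marrow, rose by 1.30 ± 0.12. The abundant granule genes Camp, Ngp and Lcn2 and the calprotectin genes S100a8 and S100a9 were not called, with differences of 0.04 to 0.17. Fcnb fell by 1.35 and the decoy receptor Il1r2 by 1.23.

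Red cell genes rose together. Of 17 measured erythroid genes, 15 rose and 0 fell, also without both arrays, and the median was 1.47. Gata1, the lineage's master factor, read 10.34, 10.10, 10.14, 10.05 and 10.09 in RAS-ON and 11.84, 11.91, 12.04 and 11.95 late, a rise of 1.79 ± 0.07 (adjusted p = 9.53e-11). Car1, carbonic anhydrase 1, rose by 2.49 ± 0.12 (5.62-fold), the blood group gene Kel by 2.30, Ermap by 2.00, Klf1 by 1.78, the transferrin receptor gene Tfrc by 1.44 and Alas2, the first enzyme of haem synthesis in red cells, by 1.45. The 2 members that were not called were the adult alpha globins Hba-a1 (0.10) and Hba-a2 (-0.01), whose probe sets read between 5.99 and 6.89 in RAS-ON and late arrays alike. Probe sets with several symbols were left out, and readings this low do not show that adult alpha globin was low or unchanged. No probe set read an adult beta globin under 1 symbol. The summed intensity of the list was 47196 to 59548 in the RAS-ON arrays and 134615 to 148382 in the late arrays. Whether this came from host erythroid cells of the spleen or from the leukemia cells was not tested.

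The GATA motif AGATAA was present in some of these promoters, and 2 that hold it are shown because they belong to the erythroid genes with the largest change that RefSeq gives here. They are the 250 bases before the RefSeq start (build GRCm38.p6), 5′ to 3′ along the gene, with each match to AGATAA on either strand in capitals. Epb42 lies at chr2:121036878-121037127, minus strand, and Kel at chr6:41704326-41704575, minus strand.
Epb42: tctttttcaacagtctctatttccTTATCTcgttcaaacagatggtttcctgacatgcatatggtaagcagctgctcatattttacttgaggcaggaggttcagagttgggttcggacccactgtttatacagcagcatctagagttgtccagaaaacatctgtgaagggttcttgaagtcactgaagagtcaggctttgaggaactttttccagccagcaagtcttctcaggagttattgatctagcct
Kel: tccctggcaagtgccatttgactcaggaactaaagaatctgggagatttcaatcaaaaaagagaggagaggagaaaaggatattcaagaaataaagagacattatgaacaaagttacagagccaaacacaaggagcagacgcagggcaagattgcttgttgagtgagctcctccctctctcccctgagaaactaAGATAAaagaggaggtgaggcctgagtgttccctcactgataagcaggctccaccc
The match lies 221 to 226 bases before the start in Epb42 and 51 to 56 bases before it in Kel. Of 14 erythroid list members with a RefSeq promoter 6 held the motif (42.9%), beside 10.2% of all 27025 promoters of that length. A match is a description of these letters and not evidence of binding.

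Platelet genes rose too. Of 10 megakaryocyte genes 9 rose and 0 fell (median 0.47), and the summed intensity of the list was 17230 to 22000 in RAS-ON and 24679 to 29457 late. The members included Itgb3, the platelet integrin, up by 0.72, the von Willebrand factor gene Vwf by 0.68 and the receptor subunit Gp1bb by 0.59. Itgb3 and Gp1bb each had 1 of 2 probe sets called, and the means gave 0.42 and 0.39. Pf4, platelet factor 4, read 12.69, 12.45, 12.24, 12.54 and 12.55 in RAS-ON and 13.05, 12.93, 12.88 and 12.99 late, with no overlap. Of 12 eosinophil, basophil and mast cell genes 5 rose and 1 fell (median 0.12), and without both arrays 4 and 1. Prg2 (1.98 ± 0.39) and Epx (1.75 ± 0.38), which encode the granule proteins major basic protein and eosinophil peroxidase, rose, and so did the eotaxin receptor Ccr3 (1.37), whereas the eosinophil lectin Siglecf was not called (-0.08, adjusted p = 0.689). RAS-ON replicates 4 and 5 read 12.33 and 12.31 for Prg2, well above the 10.19 to 10.90 of replicates 1 to 3. For Epx they read 11.06 and 10.84, against 8.88 to 9.83 in replicates 1 to 3. The size of both rises therefore varied with the RAS-ON arrays, that of Epx from 0.82 to 2.37 over the alternatives. The basophil protease Mcpt8 fell by 2.25. For Mcpt8 too, RAS-ON replicates 4 and 5 (10.58 each) lay above replicates 1 to 3 (8.92 to 9.28). Over the alternatives its change ranged from -3.13 to -1.66.

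Markers of resident cells of the spleen were higher in part in the late samples, the stromal ones mainly at 84 h. Of 14 red pulp macrophage genes 9 rose and 1 fell (median 0.61), and without both arrays 10 and 0. The members that rose included Timd4, which binds dying cells (1.26 ± 0.09), the iron exporter Slc40a1 (1.05 ± 0.07), the adhesion molecule Vcam1 (0.96 ± 0.12) and Spic, the factor that defines these macrophages (0.75 ± 0.15). Vcam1 was called by 1 of its 3 probe sets, and their mean gave 0.58. Hmox1, which breaks down haem, fell by 0.54, a call lost without both arrays (adjusted p = 0.0886). The summed intensity of the list was 13572 to 19058 in RAS-ON and 20783 to 26577 late. Of 21 stromal and endothelial genes 11 rose and 4 fell (median 0.30), and without both arrays 8 and 4. The rises were led by the chemokine Cxcl12 (1.53 ± 0.09) and the sinusoidal receptor Stab2 (1.28 ± 0.12), while the endothelial and leukocyte adhesion molecule Pecam1 fell by 1.13. Different probe sets of Cxcl12 were called in opposite directions. Summed stromal intensity was 32884 to 36632 in RAS-ON and 31924 to 44529 late, the groups overlapping. By array, the stromal median relative to the RAS-ON mean was 0.38 and 0.39 at 84 h and 0.21 and -0.02 at 96 h. The red pulp median was 0.77 and 0.76 at 84 h and 0.28 and 0.55 at 96 h. In 96 h minus 84 h, 0 genes of either list were called. The part of these resident cells in the other results was not tested.

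Lymphocyte and dendritic markers gave no common direction. Natural killer genes had 4 risen and 1 fallen of 9 (median 0.21), B cell genes 4 risen and 3 fallen of 10 (0.01), T cell genes 2 and 2 of 9 (0.08), and dendritic and class II genes 2 and 2 of 12 (0.11). Without both arrays the counts risen and fallen were 4 and 0, 4 and 3, 2 and 1, and 0 and 2 in that order. These shares should be read beside the 19.4% higher and 26.6% lower over all genes. Gzma, a killer cell protease, rose by 0.69. Cd3d rose by 0.84 while its partners Cd3e and Cd3g were not called (0.05 and 0.08), and the B cell receptor subunit Cd79b fell by 1.64 while Cd79a was not called (-0.11). Summed intensities were 2021 to 2288 in RAS-ON and 2430 to 2663 late for the 9 T cell genes, 2962 to 3554 and 3619 to 4190 for the natural killer genes, 2628 to 2794 and 2299 to 2647 for the B cell genes, and 53541 to 59432 and 52165 to 57715 for the dendritic and class II genes. No value on this platform is 0, and detection calls were not used here, so absence of a cell type cannot be read from these levels.

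**Figure D3:**
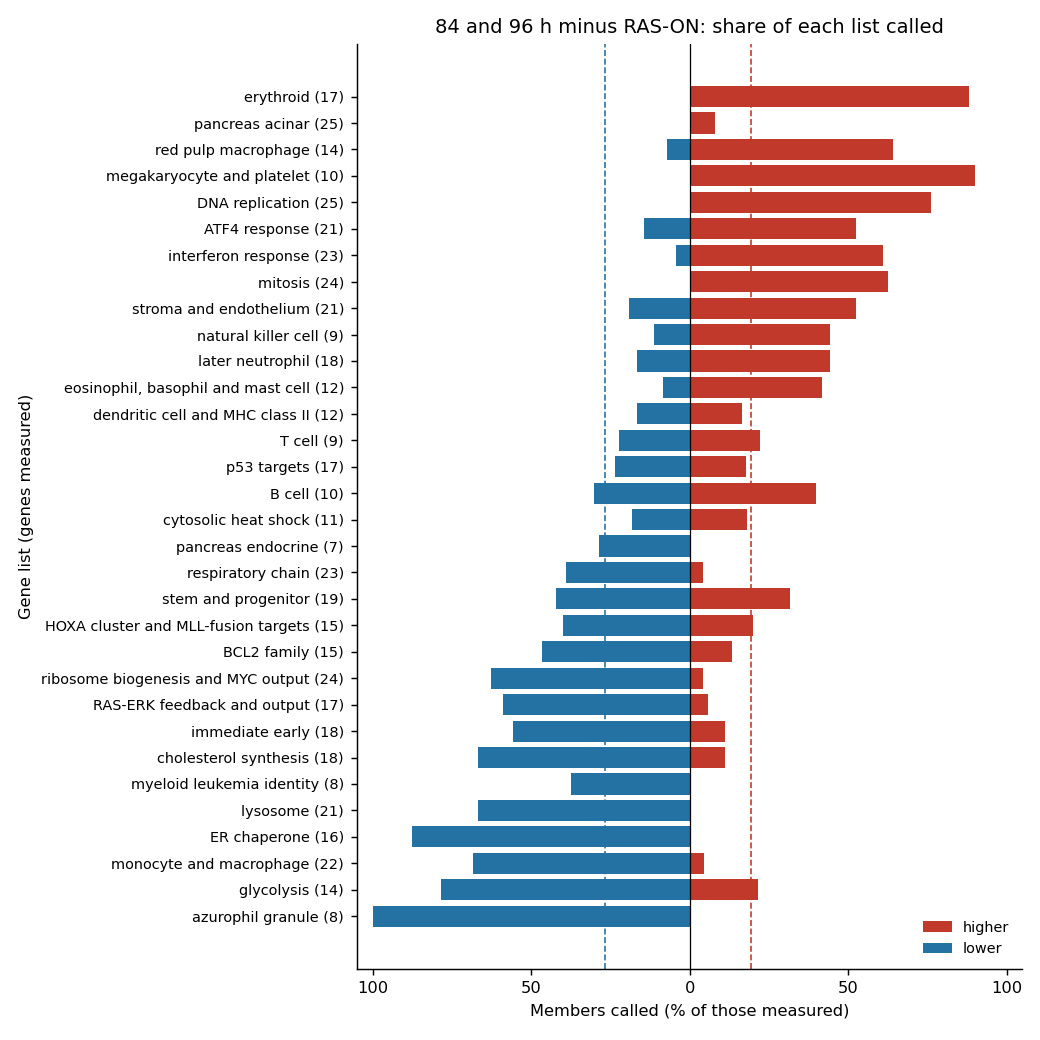
Bars give the percentage of each list's measured members called higher (right, red) or lower (left, blue) in the 4 late arrays than in the 5 RAS-ON arrays, ordered by median change, with the number measured in brackets. Dashed lines mark the shares over all 18193 genes, 19.4% higher and 26.6% lower. The list labelled cytosolic heat shock also holds the mitochondrial Hspe1.

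Glycolysis genes were lower in the late arrays. Of 14 glycolytic genes 11 fell and 3 rose (median -0.94), and without both arrays 11 and 2. Pkm, pyruvate kinase, read 12.83, 12.90, 12.62, 12.17 and 12.27 in RAS-ON and 10.60, 10.85, 10.62 and 10.33 late and fell by 1.96 (3.88-fold lower, adjusted p = 2.73e-07). Pgam1 read 12.92, 12.95, 12.95, 13.07 and 13.12 in RAS-ON and 11.43, 11.23, 10.94 and 11.24 late and fell by 1.79 (adjusted p = 5.07e-10). The platelet-type phosphofructokinase Pfkp fell by 1.55 (-0.98 as the mean of its probe sets). The liver type Pfkl (-1.06) and the glucose transporter Slc2a1 (-1.14) fell as well. The 3 that rose were isoforms of the same steps, the muscle-type phosphofructokinase Pfkm (1.28 ± 0.07), the transporter Slc2a3 (0.69 ± 0.08) and the hexokinase Hk1 (0.38 ± 0.13), whose call was lost without both arrays (adjusted p = 0.105) and with the mean of its probe sets (0.02). Late and RAS-ON arrays did not overlap for Pfkp or for Pfkm, which moved in opposite directions.

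Cholesterol synthesis followed, with 12 of 18 genes fallen and 2 risen (median -0.46). Fdps, farnesyl diphosphate synthase, fell by 1.19, Cyp51 by 1.04 and Mvd by 1.02, while Fdft1 rose by 0.39. The mean of probe sets gave -0.66 for Fdps, -0.52 for Cyp51 and -0.05, not called, for Fdft1. Without both arrays 10 fell and 0 rose. Of the respiratory chain genes 9 of 23 fell and 1 rose (median -0.08), beside 26.6% lower and 19.4% higher over all genes. Without both arrays 4 fell and 1 rose, with 20.1% and 14.6% over all genes, so the share of the list that fell was then below that of all genes. Subunits of succinate dehydrogenase were among the falls, Sdhc by 0.75, Sdhb by 0.41 and Sdhd by 0.34, of which Sdhd lost its call without both arrays (adjusted p = 0.0808).

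Stress programmes went separate ways. The chaperones and folding enzymes of the endoplasmic reticulum were lower, 14 of 16 fallen and 0 risen with and without both arrays (median -0.54). Edem1, which targets misfolded glycoproteins for disposal, read 11.01, 11.14, 10.92, 10.94 and 10.91 in RAS-ON and 9.53, 9.43, 9.59 and 9.34 late and fell by 1.51 (adjusted p = 9.64e-10). Sdf2l1 fell by 1.18, Creld2 by 1.11, the factor gene Xbp1 by 0.52 and Hspa5, which encodes BiP, by 0.36. Of 11 cytosolic and mitochondrial heat shock genes 2 rose and 2 fell (median -0.03, and 0.02 with arrays centred), and without both arrays 2 and 1. The heat shock counts stand beside 19.4% higher and 26.6% lower over all genes. Dnajb1 had the largest change among the called members (1.02 ± 0.08). The other rise was that of Hspe1, a mitochondrial chaperonin gene (0.30 ± 0.09), which kept its call in 24 of 26 alternatives.

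Targets of ATF4, the factor that restores amino acid supply and is translated when protein synthesis is slowed, were higher in part: 11 of 21 rose and 3 fell (median 0.42). Asns, asparagine synthetase, read 10.60, 10.59, 10.26, 10.36 and 10.48 in RAS-ON and 12.14, 12.21, 12.23 and 12.23 late, a rise of 1.74 ± 0.07 (3.35-fold, adjusted p = 3.27e-10). Ddit3, which encodes CHOP, rose by 1.23, its inhibitor Trib3 by 1.11 and Atf4 itself by 0.42. The serine synthesis genes on the list went the other way: Psat1 fell by 1.21 and Phgdh by 0.98, and Psph was not called (-0.26). The promoter of Asns is shown because its gene had the largest rise of the list and the window holds the C/EBP-ATF motif TGATGNAA (either strand, in capitals). It spans chr6:7693210-7693459, minus strand, in the same build and orientation.
Asns: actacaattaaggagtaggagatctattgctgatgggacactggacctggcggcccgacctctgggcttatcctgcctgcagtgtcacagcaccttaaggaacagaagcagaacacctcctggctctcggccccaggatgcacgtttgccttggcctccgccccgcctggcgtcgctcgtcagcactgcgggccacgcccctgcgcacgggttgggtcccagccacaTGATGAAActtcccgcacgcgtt
The match lies 16 to 23 bases before the start. Of 18 list members with a RefSeq promoter 6 held the motif (33.3%), beside 3.53% of all promoters. The window of Ddit3 did not hold these letters.

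Interferon-stimulated genes, the antiviral response genes, were higher. Of 23, 14 rose and 1 fell (median 0.41), and without both arrays 12 and 1. Rsad2, the antiviral enzyme viperin, read 11.35, 11.31, 11.19, 11.51 and 11.34 in RAS-ON and 13.51, 13.59, 13.56 and 13.61 late, a rise of 2.23 ± 0.08 (4.68-fold, adjusted p = 8.36e-11). The nucleotide kinase Cmpk2 rose by 2.00 ± 0.16 (1.27 as the mean of its probe sets), the negative regulator Usp18 by 1.70 ± 0.26 and Ifit1 by 1.46. For Usp18, RAS-ON replicates 4 and 5 read 7.28 and 7.42, below the 8.28 to 8.69 of replicates 1 to 3. Its rise ranged from 1.23 to 2.40 over the alternatives. Classical members were not all among them: Mx1 was not called (-0.37, adjusted p = 0.107), nor were Mx2 and Stat2 (0.13 and -0.02), and Bst2 fell by 0.41. Summed intensity of the list was 10689 to 13048 in RAS-ON and 25126 to 28075 late. The promoter of Rsad2 is shown with its match to the core of the interferon-stimulated response element (GAAA, any 2 bases, GAAA) in capitals, on either strand. It spans chr12:26456453-26456702, minus strand.
Rsad2: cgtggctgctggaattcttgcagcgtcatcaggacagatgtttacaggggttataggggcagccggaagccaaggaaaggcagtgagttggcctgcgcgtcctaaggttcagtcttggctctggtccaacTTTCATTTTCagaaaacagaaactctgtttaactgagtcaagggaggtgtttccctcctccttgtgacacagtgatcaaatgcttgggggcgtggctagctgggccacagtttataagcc
The match lies 111 to 120 bases before the start, and 7 of 17 list members with a RefSeq promoter held one (41.2%), beside 3.05% of all promoters. The window of Cmpk2 did not hold it. For the ERK and immediate early genes the same search gave 1 of 26 promoters with the ETS motif CCGGAAG (3.85%, beside 7.07% of all) and 2 of 26 with a CArG box (7.69%, beside 1.41%), and neither Klf4 nor Etv5 held a match.

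Genes of cell death and of p53 did not move as blocks. The counts of both lists should be read beside 19.4% higher and 26.6% lower over all genes. Of 17 p53 targets 3 rose and 4 fell (median 0.03), and without both arrays 3 and 2. Gadd45a rose by 1.71 ± 0.07, and the cyclin-dependent kinase inhibitor Cdkn1a fell by 1.05. In the BCL2 family 7 of 15 fell and 2 rose (median -0.16), and without both arrays 6 and 2. Bcl2, the antiapoptotic founder, read 10.25, 10.34, 10.45, 10.07 and 10.15 in RAS-ON and 8.71, 8.46, 8.55 and 8.60 late and fell by 1.67 (3.19-fold lower, adjusted p = 1.27e-09), or -1.08 as the mean of its probe sets. The death-promoting genes Bak1 (by 1.33), Bid (by 1.25) and Pmaip1 (by 0.99) fell as well, whereas the death-promoting Bcl2l11, which encodes BIM, rose by 0.79 and the protective Bcl2l1 by 0.56. The mean of probe sets gave 0.06, not called, for Bcl2l1. Mcl1 was not called (-0.12).

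Genes of DNA replication and mitosis were higher in the late arrays, while Myc and cyclin D1 were lower. Of 25 replication genes 19 rose and 0 fell (median 0.46), and of 24 mitosis genes 15 rose and 0 fell (median 0.32), both counts the same without both arrays. Ccne2, cyclin E2, read 9.95, 10.16, 9.94, 10.28 and 10.17 in RAS-ON and 11.36, 11.39, 11.42 and 11.42 late, a rise of 1.30 ± 0.10 (2.46-fold, adjusted p = 4.94e-08). Cdc6, which loads the replicative helicase, rose by 1.09 ± 0.09 and the thymidylate synthase Tyms by 1.07 ± 0.19 (0.44 as the mean of its probe sets). The proliferation marker Mki67 read 13.04, 13.10, 13.25, 12.97 and 13.05 in RAS-ON and 13.81, 13.88, 13.85 and 13.74 late, a rise of 0.74 ± 0.07, and the spindle genes Nusap1 and Cenpf rose by 0.85 and 0.82, the latter by 0.32 as the mean of its probe sets. Erythroid genes rose in the same arrays. Which cells carry the replication transcripts cannot be told apart in bulk RNA.

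Fewer genes separated the late arrays from the 6 earlier RAS-OFF arrays. In late minus earlier 632 genes were higher (3.47%) and 1258 lower (6.91%), only 2 and 11 of them by at least 1 log2 unit. Centring arrays on their medians gave 1063 higher and 968 lower, 52.3% of calls higher in place of 33.4%. Without both arrays 224 were higher (1.23%) and 636 lower (3.50%), and leaving out 84 h replicate 2 gave 1086 calls in all. Of the 16 genes with the largest differences from RAS-ON, 11 were not called between late and earlier arrays. Their levels at 48 to 72 h were already far from RAS-ON, as for Cdh17 (6.22 to 6.72) and Hbb-y (13.45 to 13.82).

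Replication genes were higher in the late than in the earlier arrays. They had 19 of 25 higher and 0 lower in late minus earlier (median 0.31) and mitosis genes 15 of 24 higher and 0 lower (0.25), though without both arrays only 11 and 5 were called, with medians of 0.33 and 0.29. By array, the replication list's median relative to the RAS-ON mean was 0.09 and 0.16 at 48 h, -0.07 and -0.02 at 60 h, 0.28 and 0.30 at 72 h, 0.41 and 0.47 at 84 h, and 0.46 and 0.52 at 96 h. The 60 h arrays thus lay at the RAS-ON level, and the 4 late arrays lay above each of the 6 earlier ones. The mitosis median was 0.03 and 0.09 at 48 h, 0.01 and -0.07 at 60 h, 0.27 and 0.31 at 72 h, 0.27 and 0.46 at 84 h, and 0.29 and 0.34 at 96 h. Late arrays therefore overlapped the 72 h arrays in the mitosis list, and its difference from the pooled earlier arrays lay mostly against 48 and 60 h. Glycolysis had 8 of 14 lower and 1 higher (-0.33), monocyte genes 11 of 22 lower and 0 higher (-0.35), and azurophil genes 4 of 8 lower (-0.35), with 2, 7 and 1 lower without both arrays. When 48 h replicate 1 was left out, the medians were 0.30 for replication, 0.24 for mitosis, -0.33 for glycolysis, -0.37 for monocyte and -0.36 for azurophil genes. Dusp6 fell by a further 0.61 (adjusted p = 0.00201) below its earlier range of 10.86 to 11.22. Etv5 was not called between late and earlier arrays (-0.18, adjusted p = 0.367).

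Later neutrophil genes instead came back down. Of 18 members 14 were lower and 0 higher than at 48 to 72 h (median -0.62), and 7 were lower without both arrays (median -0.60). Mmp8 lay between 12.60 and 12.94 in the 6 earlier arrays, above the late range of 11.72 to 12.20 and far above RAS-ON and fell by 0.74 (adjusted p = 0.000358) after its rise. Cxcr2 lay between 10.33 and 10.89 earlier and fell by 0.85, late arrays lying at 9.59 to 10.08. Erythroid genes had 3 of 17 higher (median 0.17) but 0 without both arrays, interferon and megakaryocyte genes had 0 called in either direction, and ER chaperones had 4 of 16 lower. The interferon list was not level within the pooled earlier arrays. Its median relative to the RAS-ON mean was 0.90 and 0.95 at 48 h, 0.72 and 0.34 at 60 h, and 0.21 and 0.28 at 72 h. It was 0.51 and 0.48 at 84 h and 0.36 and 0.52 at 96 h. Of the stromal genes 4 of 21 were lower (19%) and of the dendritic and class II genes 3 of 12 (25%), beside 6.91% over all genes, and without both arrays 2 and 0 were lower, beside 3.50%. With the replicate number as a block 6 stromal and 3 dendritic genes were lower, and 5 of 9 natural killer genes in place of 1. B cell and T cell genes had 1 called each, and red pulp genes 0.

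**Figure D4:**
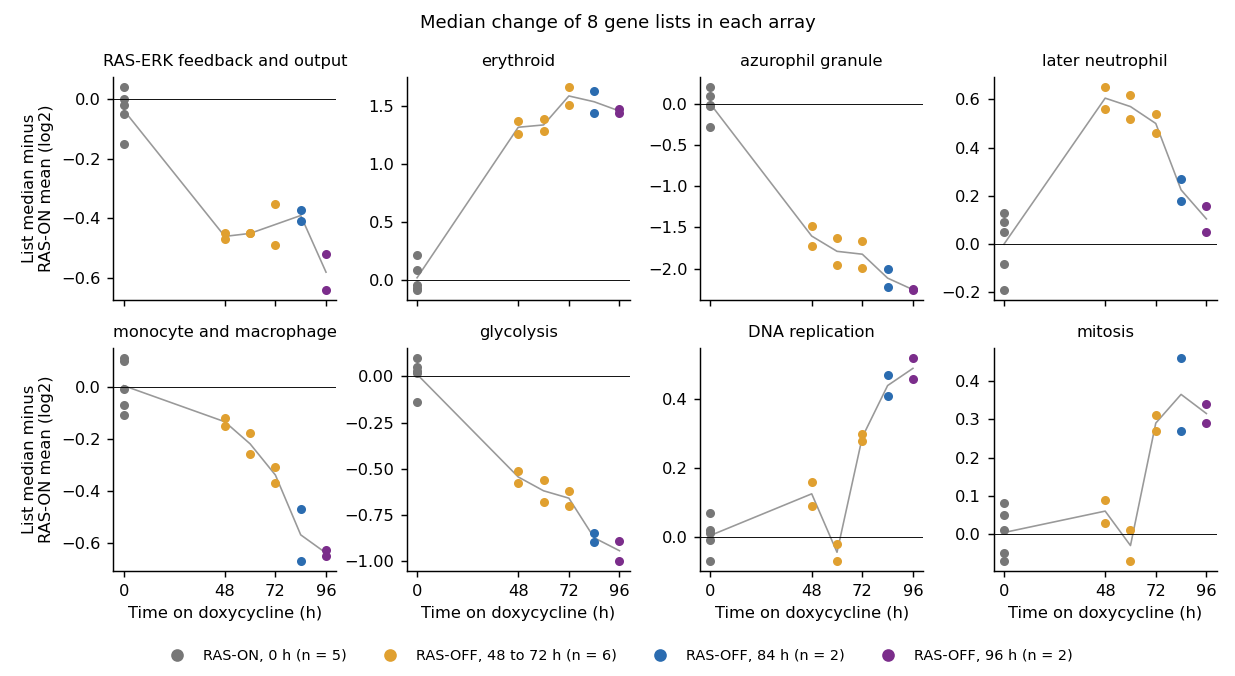
For 8 gene lists each point is 1 array's median difference from the RAS-ON mean over the list's measured genes, in log2 units, against hours on doxycycline; grey lines join the means of each time. Replication and mitosis medians of the 84 and 96 h arrays lie above those at 60 h, and later neutrophil medians, 0.46 to 0.65 at 48 to 72 h, lie at 0.05 to 0.27 at 84 and 96 h.

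Late minus earlier compares with the pooled 48, 60 and 72 h arrays, so a difference can lie partly before 72 h. By single gene, Tac2 had the largest rise over them among called genes without overlap, with earlier arrays at 8.78 to 9.32 and late arrays at 10.08 to 10.39 (1.17 ± 0.11, adjusted p = 7.08e-05). Ddx4, a germline RNA helicase, rose by 1.02 ± 0.10, with earlier arrays at 5.25 to 6.15 and late arrays at 6.41 to 6.62. The stearoyl-CoA desaturase Scd1, which makes unsaturated fatty acids, read 9.18, 9.15, 8.66 and 8.52 late against 7.50 to 8.24 earlier (0.95 ± 0.07) and 7.42 to 7.72 in RAS-ON. The earlier arrays overlapped RAS-ON, and the late arrays did not. St6galnac3 (0.93), Slc6a20a (0.93) and Aldh1a7 (0.89) rose too, of which Slc6a20a lost this call without both arrays. Slc6a20a already read 9.74 in both 72 h arrays against 9.86 to 10.21 late, and Aldh1a7 7.52 and 7.69 against 7.85 to 8.25. The mean of probe sets gave 0.33 for St6galnac3.

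Among the 6 largest falls from the pooled earlier arrays, Orm1, an acute phase protein, fell by 1.19, with earlier arrays at 9.02 to 9.47 and late arrays at 7.59 to 8.45, and lost this call without both arrays. Pglyrp1, a peptidoglycan-binding protein of neutrophil granules, fell by 1.19, with earlier arrays at 11.55 to 13.22 and late arrays at 10.74 to 11.43. The 13.22 was that of 48 h replicate 1, and the other earlier arrays read 11.55 to 12.35. The lectin-like receptor Clec5a fell by 1.15, but 96 h replicate 1 read 7.39 against 8.70 to 9.08 in the other late arrays. The stefins Stfa3 and Stfa2l1 fell by 1.14 and 1.09 and the protease Asprv1 by 1.09. Stfa2l1 read 10.31 to 11.19 at 48 to 72 h and 9.31 to 9.89 late, where it overlapped the RAS-ON range of 8.93 to 10.09.

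**Figure D5:**
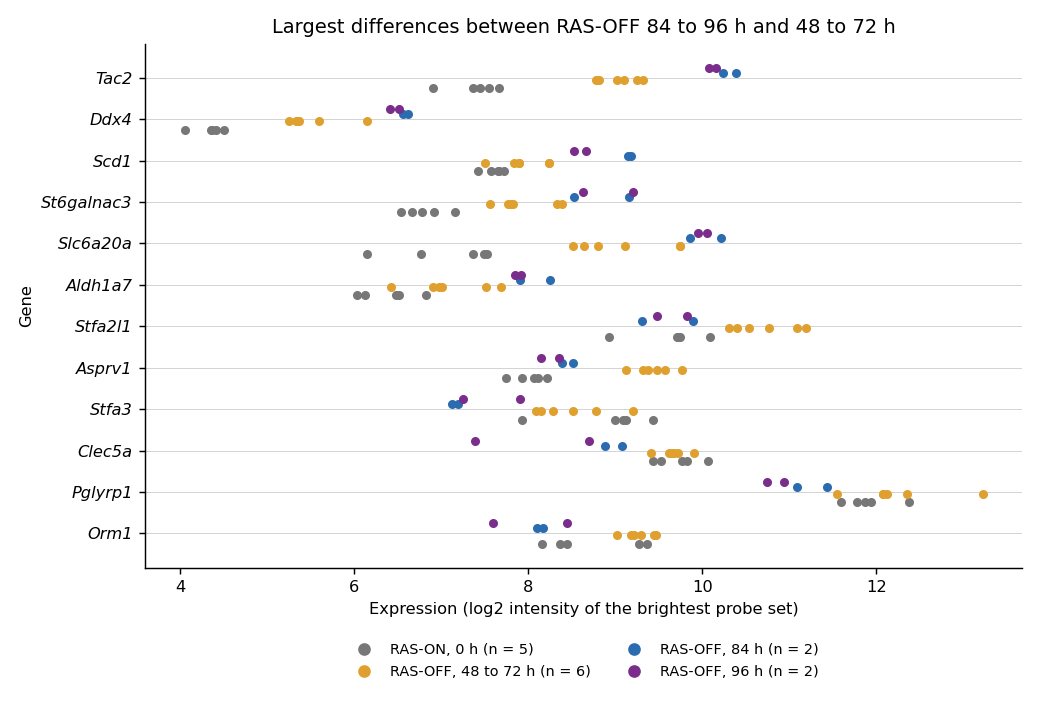
Each point is the log2 intensity of 1 gene in 1 array, for the 6 largest rises and 6 largest falls between late and earlier RAS-OFF arrays among called genes without overlap. For Tac2 the 4 late arrays lie at 10.08 to 10.39 and the 6 earlier ones at 8.78 to 9.32, and for Clec5a 96 h replicate 1 lies at 7.39.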

How the data were processed

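Total RNA of 15 samples was amplified, labelled with biotin and hybridised to 1-colour Affymetrix mouse arrays, per the labels. The deposited value table holds intensity values on a linear scale that the authors obtained with RMA (background correction, quantile normalization and probe set summary), per the submitters' processing notes, which name the tool without a version. The intensities were put on log2; none was at or below 0. Of 45101 probe sets, 34945 had 1 gene symbol, 932 several, 9160 none and 64 were controls; the brightest probe set by mean over the arrays stood for each of 18193 genes. Gene names came from the platform annotation, with 34741 probe sets matched to RefSeq, and 0 symbols changed.

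limma 3.58.1 in R 4.3.3 was fitted with the 6 time groups over all 15 arrays, with contrasts for 84 and 96 h together and singly against RAS-ON, 96 h against 84 h, and 84 to 96 h against 48 to 72 h. Adjusted p is Benjamini-Hochberg over all genes. The script was tested on simulated data. Arrays have no read depth; precision is set by how many arrays a group has. The samples compared, the 32 gene lists (513 of 566 listed genes measured) and the tests were chosen with earlier results of these data known. Named genes were 8 genes of RAS and MLL biology whatever their values, the 8 largest rises and 8 falls from RAS-ON and the 6 largest rises and 6 falls from the earlier arrays among called genes without overlap, the 3 most changed called members of every list, and the 3 brightest pancreas genes; provisional symbols were passed over among the largest. Other genes were named from the lists as examples after their values were seen. Promoters are RefSeq's, 1 a gene, from the most upstream start. Alternatives were another probe set rule, a filter on dim genes, centring, array weights, other fits and control arrays, the replicate number as a block, and leaving out arrays.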

Additional observations from a re-analysis of the deposited data

Results flagged for a closer look

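Dixon's criterion for a sample far from the others was applied to the 5 RAS-ON arrays and the 4 late arrays of each named gene and list, 316 groups in all. It marked 14 of them (4.43%), where chance alone marks about 1 in 20; 7 were in 84 h replicate 1, 3 in 96 h replicate 1 and 4 in RAS-ON.

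In 84 h replicate 1 the pancreas acinar list had a median of 5.07 above the RAS-ON mean, against -0.06 to -0.01 in the other late arrays, and its members Cela1 and Cela3b read 13.40 (others 9.70 to 9.91) and 12.24 (others 8.41 to 8.56). In the same array Etv5 read 8.02 against 7.47 to 7.49, Aldh1a7 8.25 against 7.85 to 7.92 and Creld2 9.09 against 8.94 to 8.96. The azurophil list median was -2.01 there, against -2.26 to -2.22.

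In 96 h replicate 1, the array with the 3′ excess, Tyms read 8.91 against 8.47 to 8.51, Fdps read 8.91 against 9.44 to 9.49, and Stfa3 read 7.90 against 7.12 to 7.25. Among RAS-ON arrays, Mmp8 stood out in replicate 2 (10.63, others 10.19 to 10.25), Slc40a1 in replicate 1 (10.85, others 11.11 to 11.18), Pecam1 in replicate 4 (8.51, others 8.70 to 8.77) and Stfa3 in replicate 3 (7.93, others 9.0 to 9.43).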

How the results depend on the processing

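The counts of called genes in late minus RAS-ON, 84 h minus RAS-ON, 96 h minus RAS-ON and late minus earlier arrays (8369, 6700, 6847 and 1890) were compared over the alternatives. Testing all probe sets separately gave 17965, 13186, 14517 and 3192, since more features were tested, and also asking for 1 log2 unit gave 987, 1006, 1001 and 13. Without both arrays that stood apart, 96 h minus RAS-ON gave 4404 and late minus earlier 860, with fewer samples. Leaving out 1 array in turn gave 7107 to 8408, 4283 to 6979, 4653 to 7014 and 1086 to 2104; the lowest for 84 h and for late minus earlier came without 84 h replicate 2. For 96 h minus 84 h these gave 0 to 37. Where 1 array was left at a time point, its spread was taken from the other groups. With the replicate number as a block, late minus RAS-ON gave 8091 calls; same-numbered arrays did not deviate together (correlations of -0.24 to 0.22, 5 of 30 pairs over 0.1), so the numbers are not taken as pairs. The other 116 values of these counts stayed within 1.5 times. Of 121 named genes called in late minus RAS-ON, 106 kept the call under every alternative run and 15 lost it under some: Nras, Myc, Kit, Ncr1, Cd28, Zbtb46, Ly75, Cela1, Ptf1a, Neurod1, Sdhd, Hspe1, Orm1, Pglyrp1 and Asprv1. With RAS-ON replicates 4 and 5 alone, Meis1 turned to 0.37 and Cd28, lower by 0.62 in the fit reported, to 0.03; RAS-ON replicates 1 to 3 read 7.42 to 7.67 for Cd28 and replicates 4 and 5 6.42 and 6.51. How many arrays each group has limits these values, with 2 at each late time.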
